A study of Mus musculus with 4 samples.

Results

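Open chromatin at 10 genes of the Notch pathway was compared between lung tumours of mice with and without an altered Dicer1 allele. The genes were 4 ligands (Jag1, Jag2, Dll1 and Dll4), 4 receptors (Notch1, Notch2, Notch3 and Notch4) and 2 transcriptional targets (Hes1 and Hey1), of 21887 placed protein-coding genes. ATAC-seq, in which a transposase cuts and tags accessible DNA, had been run on frozen tumour tissue, and the authors called peaks in each library on its own and merged them into 61972 regions. Counting for each gene the regions that touch it or lie at most 10 kb away gave 53 regions, and no region belonged to more than 1 of the 10 genes. The list was chosen by the peak calls at Jag2, where the widest region absent from both tumours with the altered Dicer1 and present in the other pair lies, so the genotype values at Jag2 are a description and no test was run on them. The group KrasLA1/+;Dicer1S2D/+ had 2 tumour samples and the group KrasLA1/+ had 2, all from C57B6J mice aged 55 weeks. Replicate 1 of each group was a female and replicate 2 a male. KrasLA1 is a latent oncogenic allele, switched on by spontaneous recombination in single cells, and all 4 mice carried it. Dicer1S2D, made to mimic phosphorylated Dicer1, the enzyme that cuts microRNA precursors, was carried by the mice of the first group alone. The sources do not say how many tumours went into a sample of 40 to 50 mg.

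Notch ligands are membrane proteins that bind Notch receptors on a neighbouring cell. Cleavage by an ADAM protease and then by gamma-secretase frees the intracellular part of the receptor, which joins the DNA-binding protein RBPJ and the coactivators of the Mastermind family to switch on HES and HEY genes. In the lung the pathway is known for steering airway precursors to secretory rather than ciliated cells and for its part in vessels.

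The deposited table says whether and where a peak was called and holds no height or read count, so the depth of the libraries is unknown. KrasLA1;Dicer1S2D replicates 1 and 2 had 50282 and 34767 peaks, and KrasLA1 replicates 1 and 2 had 41621 and 44654. The median peak was 410 and 468 bp wide in the KrasLA1;Dicer1S2D tumours and 453 and 534 bp in the KrasLA1 tumours. The fewest peaks were thus in KrasLA1;Dicer1S2D replicate 2 and the widest in KrasLA1 replicate 2. In bulk tissue, fewer cells with an open site and a weaker opening in each cell cannot be told apart.

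Most of the ligand and receptor genes had a peak at their start in every tumour, and the exceptions were Jag2, Notch3 and Notch4. RefSeq promoter windows of GRCm38.p6, the assembly of mm10, from 250 bases before to 50 after a start, matched 8 of the 10 genes, all but Hes1 and Hey1. Jag1, Dll1, Dll4, Notch1 and Notch2 had a peak in a window in all 4 libraries, as had 47.5% of 20085 windows of autosomal protein-coding genes. Dll1 has 2 windows, and the upstream one had no peak in any library. Notch3 and Notch4 had no peak in their windows in any library, as had 44.5% of all windows. The Jag2 window had a peak in KrasLA1 replicate 2 alone, as had 1.32% of all windows. Of the 9 windows, 0 had a peak in both tumours of one genotype and in none of the other, beside 0.498% of all windows with peaks in the KrasLA1 pair alone and 0.0896% with peaks in the KrasLA1;Dicer1S2D pair alone. The windows of 4 genes are shown because they span these outcomes: 1 library for Jag2, all 4 for Notch2 and none for Notch3 and Notch4. Each is written 5′ to 3′ on the strand of its gene, and capitals mark matches on either strand to the GC box GGGCGG, to CACGCG and CACGAG, which HES proteins can bind, and to the AP-1 site TGACTCA.
Jag2, chr12:112929446-112929745, minus strand: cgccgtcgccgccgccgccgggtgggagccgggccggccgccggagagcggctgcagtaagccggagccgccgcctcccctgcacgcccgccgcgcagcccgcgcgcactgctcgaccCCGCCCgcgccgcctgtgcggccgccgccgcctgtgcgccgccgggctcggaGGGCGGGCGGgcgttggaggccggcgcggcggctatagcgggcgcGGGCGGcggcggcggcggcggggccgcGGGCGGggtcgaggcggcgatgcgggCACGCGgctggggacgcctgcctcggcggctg
Notch2, chr3:98013288-98013587, plus strand: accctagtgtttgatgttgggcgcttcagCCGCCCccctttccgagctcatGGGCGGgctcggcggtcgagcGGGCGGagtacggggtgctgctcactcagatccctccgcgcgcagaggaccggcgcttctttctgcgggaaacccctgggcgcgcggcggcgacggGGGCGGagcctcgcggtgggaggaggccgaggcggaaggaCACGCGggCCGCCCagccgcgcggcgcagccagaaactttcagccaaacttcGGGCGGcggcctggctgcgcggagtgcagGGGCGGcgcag
Notch3, chr17:32166841-32167140, minus strand: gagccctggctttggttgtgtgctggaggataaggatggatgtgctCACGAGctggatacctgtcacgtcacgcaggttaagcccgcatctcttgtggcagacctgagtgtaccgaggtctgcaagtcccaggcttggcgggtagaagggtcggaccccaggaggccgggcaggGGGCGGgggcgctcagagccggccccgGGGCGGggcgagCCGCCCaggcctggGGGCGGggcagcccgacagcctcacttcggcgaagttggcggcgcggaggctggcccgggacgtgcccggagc
Notch4, chr17:34564045-34564344, plus strand: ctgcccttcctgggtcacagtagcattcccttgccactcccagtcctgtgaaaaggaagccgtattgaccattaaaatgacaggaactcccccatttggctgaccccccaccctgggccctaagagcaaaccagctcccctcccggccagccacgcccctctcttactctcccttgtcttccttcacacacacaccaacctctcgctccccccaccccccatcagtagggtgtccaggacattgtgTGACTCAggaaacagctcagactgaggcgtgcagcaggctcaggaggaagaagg

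The Jag2 window was among the richest in CpG of all windows. It held 63 CpG at 86.0% GC, and 99.98% of windows had as many or fewer. The Notch2 window held 41 CpG, that of Notch3 25 and that of Notch4 5. Of all windows, those with at least the median of 14 CpG had a peak in all libraries in 77.0% and in none in 15.5%, and those with fewer had 17.7% and 73.7%. Notch4 was among the windows with fewer. Notch3, with no peak, had more CpG than Jag1 (22), Dll4 (17), Notch1 (23) and the downstream Dll1 window (24), which were called in every library. GC boxes were found 5 times in the Jag2 window, 2 of them overlapping each other, 7 times in that of Notch2, 5 in Notch1, 4 in Notch3 and 2 in Dll4. A GC box was present in 47.0% of all windows. CACGCG was found in windows of Jag1, Jag2, Dll1, Dll4 and Notch2 and in 12.5% of all windows, CACGAG in Notch3 and in 7.13%, and TGACTCA in Notch4 and in 4.695%. The RBPJ core TGGGAA (24.1% of all windows) and the E-box CACGTG (7.89%) were in none of the windows of these 8 genes. Both strands were searched, and a match is a run of letters, not a bound site.

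**Figure D1:**
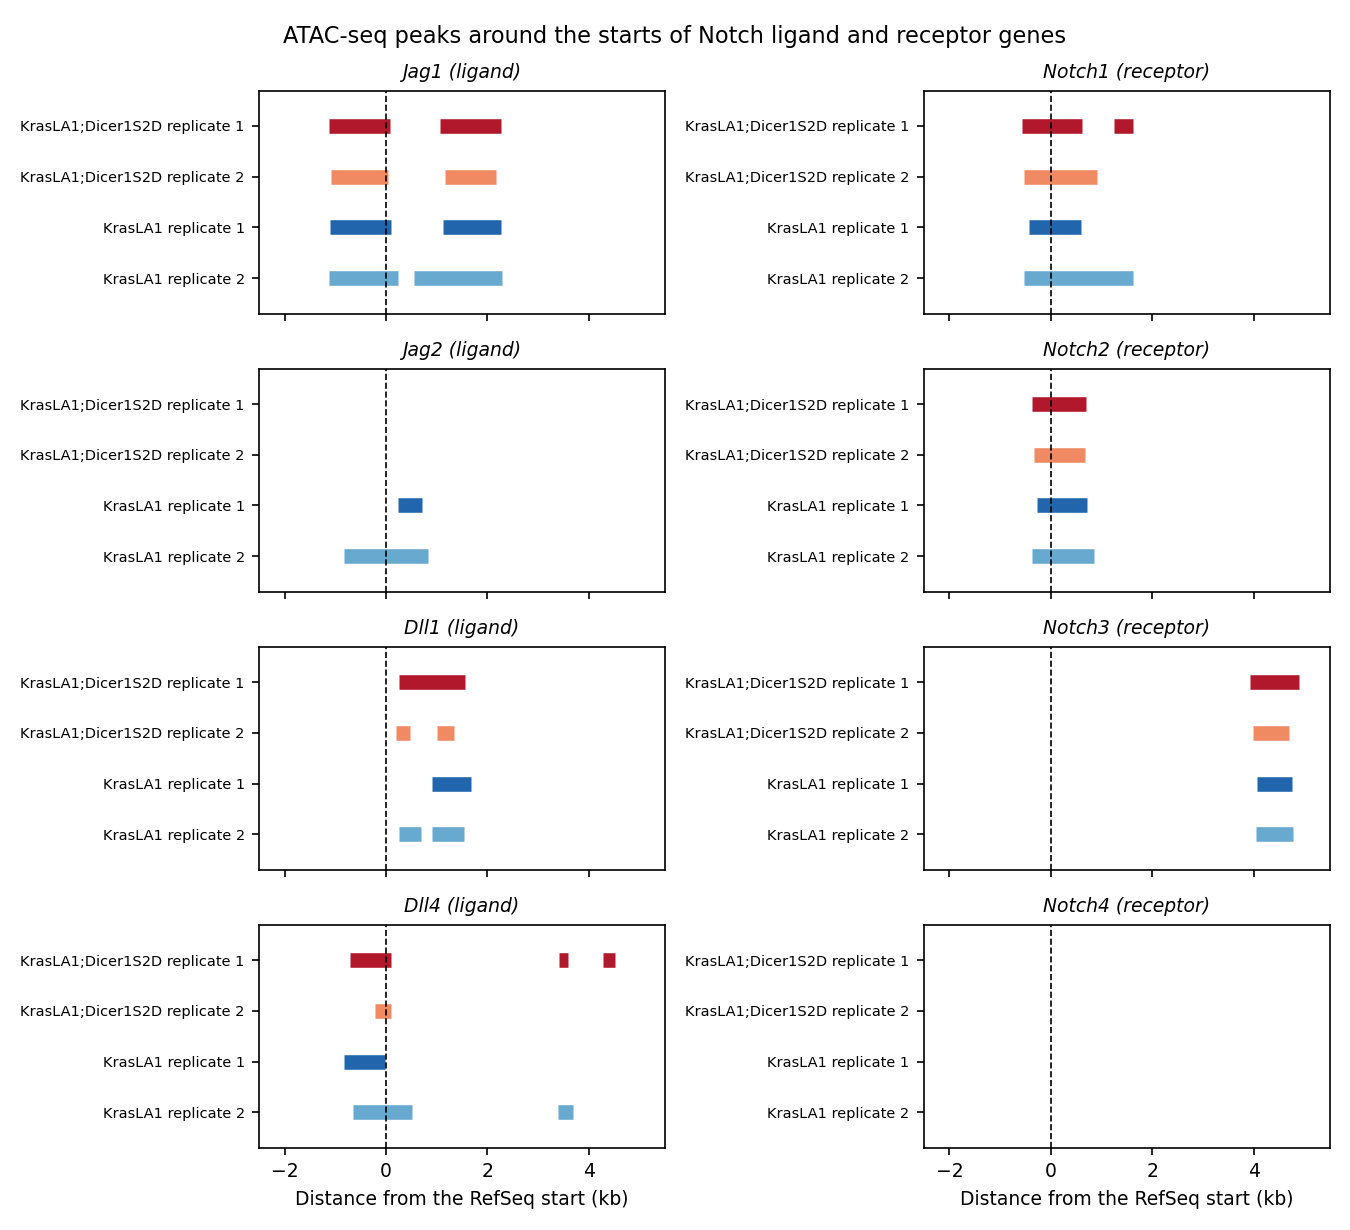
ATAC-seq peaks of each library (rows) from 2.5 kb before to 5.5 kb after the RefSeq start of the 8 ligand and receptor genes (dashed line), in kb along the direction of transcription. At Jag2 a peak crosses the start in KrasLA1 replicate 2 alone, the peak of KrasLA1 replicate 1 begins 238 bp after it, and the KrasLA1;Dicer1S2D tumours have none.

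Among the ligands, Jag2 had a region with no peak in the KrasLA1;Dicer1S2D tumours and a peak in each KrasLA1 tumour, here called a lost region. The reverse is called gained. Jag2 (chromosome 12, 112907803 to 112929812, minus strand) encodes a Jagged-type ligand. The region lay on chromosome 12 from 112928663 to 112930325, at the 5′ end of the gene. No peak was called there in either KrasLA1;Dicer1S2D tumour, against peaks of 481 bp and 1663 bp in KrasLA1 replicates 1 and 2. The width of the merged region was therefore that of the KrasLA1 replicate 2 peak. Of the 861 lost regions on the autosomes, whose median width was 382 bp, it ranked 1 by merged width, with 1280 bp for the next, and 34 by the narrower of its 2 peaks. Its wider peak was 3.46 times the narrower, against a median of 1.35 over all lost regions. The 2 peaks also differed in place. That of KrasLA1 replicate 1 ran from 238 to 718 bp after the start at 112929495 and covered 0 of the 300 bp of the promoter window, and that of KrasLA1 replicate 2 ran from -830 to 832 bp relative to that start. The start itself was thus called in 1 of the 4 libraries. KrasLA1 replicate 2 also called more of the 278 windows with at least 80% GC than the others: 75.5% and 72.3% of them had a peak in KrasLA1;Dicer1S2D replicates 1 and 2, and 76.6% and 82.4% in KrasLA1 replicates 1 and 2. Over all windows these shares were 51.7% and 50.0% in the KrasLA1;Dicer1S2D tumours and 51.2% and 52.9% in the KrasLA1 tumours. The part of GC content and of peak width in the Jag2 values was not tested.

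The other region counted for Jag2 lay 9588 bp beyond its 3′ end and was called in every library. Its peaks were 675 and 643 bp wide in KrasLA1;Dicer1S2D replicates 1 and 2, against 417 and 542 bp in KrasLA1 replicates 1 and 2. The groups did not overlap, with wider peaks in the KrasLA1;Dicer1S2D tumours, which held for 3.66% of all regions called in 4 libraries. At Jag2 the difference between genotypes therefore had opposite directions at the 5′ end and at the distant 3′ region. By the number of regions per library (1 and 1 in KrasLA1;Dicer1S2D, 2 and 2 in KrasLA1), 63 of 15881 other genes had the same counts as Jag2 in all 4 libraries. Nearest to Jag2 among them in open base pairs were Ciao2b, Nufip2, Cnp, an enzyme of myelin, Isoc1 and Rrad, a small GTPase, with summed absolute differences of 975 to 1192 bp.

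Jag1 (chromosome 2, 137081451 to 137116520, minus strand), the other Jagged-type ligand, was open at its start in all tumours. The start was covered by peaks of 1194 and 1142 bp in the KrasLA1;Dicer1S2D tumours and of 1189 and 1362 bp in the KrasLA1 tumours (replicates 1 and 2 in each), and the groups overlapped. A second region inside the gene, from 550 to 2278 bp after the start, held 1201 and 1013 bp of peak in KrasLA1;Dicer1S2D and 1145 and 1729 bp in KrasLA1, so both wide regions of Jag1 were widest in KrasLA1 replicate 2. In all, Jag1 had 4 and 3 of its 6 regions called in the KrasLA1;Dicer1S2D tumours and 5 and 4 in the KrasLA1 tumours. Of its 2 regions called in KrasLA1 replicate 1 alone, the one beyond the 3′ end overlapped the neighbouring gene Slx4ip.

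At Dll4, of the Delta-like ligands, the genotypes differed in opposite directions in the 2 replicates. Dll4 (chromosome 2, 119325784 to 119335666, plus strand), a ligand of the growing tips of blood vessels, had 5 and 2 of its 5 regions called in KrasLA1;Dicer1S2D replicates 1 and 2, and 2 and 4 in KrasLA1 replicates 1 and 2. Within replicate 1 the KrasLA1;Dicer1S2D tumour had 3 regions more than the KrasLA1 tumour, and within replicate 2 it had 2 fewer. At the Dll4 start the peaks were 822 and 324 bp wide in KrasLA1;Dicer1S2D and 806 and 1164 bp in KrasLA1, again with overlapping groups. The peak of KrasLA1 replicate 1 covered 231 of the 300 bp of the window but not the start base. Dll1 (chromosome 17, 15367354 to 15376932, minus strand), a ligand known from the embryo and from marginal zone B cells, had 1 region in its 5′ part, from 189 to 1669 bp after the upstream start, with 1294 and 614 bp of peak in KrasLA1;Dicer1S2D and 772 and 1074 bp in KrasLA1. A narrow peak of 196 bp beyond its 3′ end was called in KrasLA1;Dicer1S2D replicate 2 alone.

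Among the receptors, Notch2 held the most regions and the 1 gained region of the 10 genes. It is a long gene (chromosome 3, 98013538 to 98150367, plus strand) of a receptor known from liver and B cell development. Of its 14 regions, 10 were called in each of the 4 libraries, though not the same 10, and 7 were called in all 4. The gained region (chromosome 3, 98031135 to 98031512) lay inside the gene, 17597 to 17974 bp after the start. It had peaks of 372 and 298 bp in KrasLA1;Dicer1S2D replicates 1 and 2 that shared 292 bp, against none in either KrasLA1 tumour. At the start of Notch2 the peaks were 1076 and 1016 bp wide in KrasLA1;Dicer1S2D and 981 and 1236 bp in KrasLA1, which overlap. The widest region inside the gene, 42474 to 43915 bp after the start, had peaks of 1120 and 1310 bp in KrasLA1;Dicer1S2D and 1442 and 1334 bp in KrasLA1. There the groups did not overlap, with narrower peaks in KrasLA1;Dicer1S2D, which held for 27.2% of all regions called in 4 libraries.

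**Figure D2:**
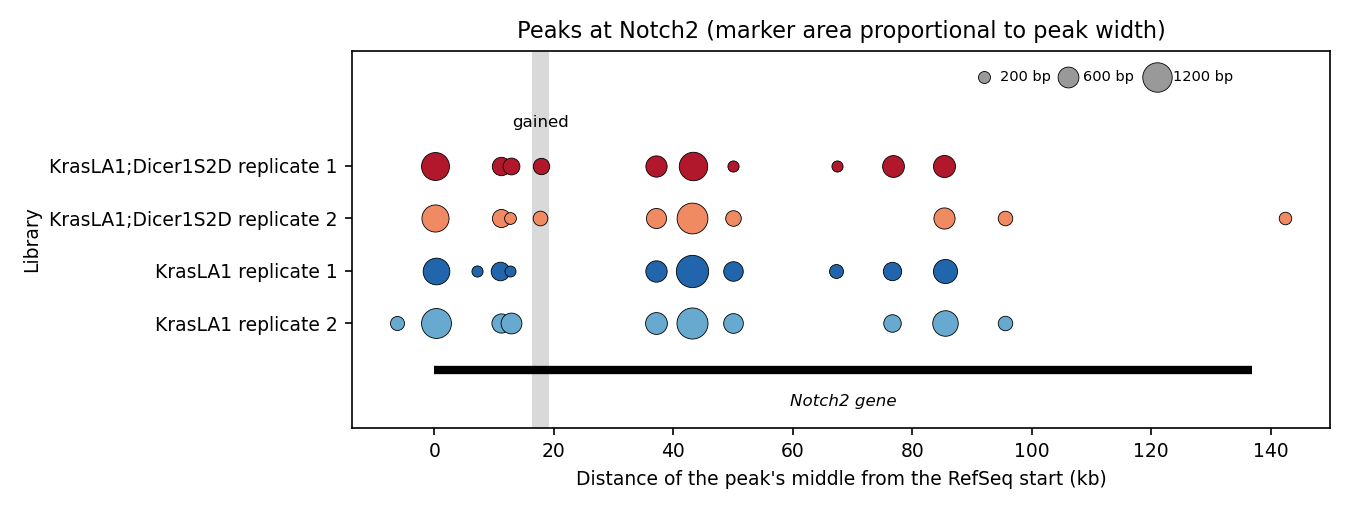
Peaks at Notch2 in each library (rows), placed by the distance of their middle from the RefSeq start in kb, with marker area proportional to peak width. Each library has 10 of the 14 regions, and the shaded region, with peaks of 372 and 298 bp, has no peak in the KrasLA1 rows.

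Notch1 (chromosome 2, 26457902 to 26503822, minus strand), a receptor known from blood cell fate, had the second most regions, 8. KrasLA1;Dicer1S2D replicates 1 and 2 had 6 and 4 of them and KrasLA1 replicates 1 and 2 had 6 and 8. Its start was covered in every tumour, in a region with 1555 and 1444 bp of peak in KrasLA1;Dicer1S2D and 1022 and 2157 bp in KrasLA1. Both KrasLA1 values lay outside the range of the KrasLA1;Dicer1S2D values, 1 below and 1 above. A wide region 20121 to 21940 bp inside the gene held 1502 and 1163 bp in KrasLA1;Dicer1S2D, in 2 and 3 peaks, and 979 and 1820 bp in KrasLA1, in 2 peaks and 1. The 2 regions called in 1 library at Notch1 were both of KrasLA1 replicate 2.

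Notch3 (chromosome 17, 32120820 to 32166896, minus strand), a receptor of vascular smooth muscle cells and pericytes, had no peak within 3933 bp of its start in any tumour. Its nearest region, 3933 to 4888 bp inside the gene, was called in all 4, with 956 and 728 bp in KrasLA1;Dicer1S2D and 685 and 736 bp in KrasLA1. Of its 3 regions, 3 and 1 were called in KrasLA1;Dicer1S2D replicates 1 and 2, and 2 and 3 in KrasLA1 replicates 1 and 2. Within replicate 1 this was 1 region more in the KrasLA1;Dicer1S2D tumour and within replicate 2 it was 2 fewer. Of 7 markers of mural cells and fibroblasts 4 had a promoter window, and 0 of those 4 had a peak there in any library. Of all windows 44.5% had no peak in any library. Loci of the 7 held 25 regions, of which 17 and 9 were called in KrasLA1;Dicer1S2D and 15 and 12 in KrasLA1. The part of mural cells in the Notch3 values was not tested.

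Notch4 (chromosome 17, 34564286 to 34588543, plus strand), a receptor of endothelial cells, was likewise without a peak at its start. Its widest region lay near the 3′ end, 21872 to 23598 bp after the start, and was called in all tumours with 1379 and 731 bp in KrasLA1;Dicer1S2D and 1090 and 1073 bp in KrasLA1. A lost region was counted for Notch4 on chromosome 17 from 34591648 to 34592427. It had no peak in KrasLA1;Dicer1S2D and peaks of 460 and 340 bp in KrasLA1 replicates 1 and 2. Those peaks shared 20 bp, which is 5.88% of the narrower, and with an overlap of at least 50% of the narrower peak required they became separate regions and Notch4 had no lost region. The merged region also lay 3105 bp beyond the gene, over Gpsm3 and Pbx2, and within 10 kb of Ager, a membrane receptor of alveolar type 1 cells. A further region of the same window overlapped Ager and had peaks of 172 and 202 bp in KrasLA1;Dicer1S2D and 214 and 279 bp in KrasLA1. Its peaks were narrower in both tumours with the altered Dicer1, which held for 27.2% of all regions called in 4 libraries. Of 8 endothelial markers 5 had a region, and Cdh5, Kdr and Tie1 had none. Of their 6 promoter windows 1, that of Flt1, had a peak in all libraries and 5 had none, beside 47.5% and 44.5% of all windows. The endothelial loci held 23 regions, of which 16 and 14 were called in KrasLA1;Dicer1S2D and 18 and 20 in KrasLA1. These groups did not overlap, and neither did those of the alveolar type 1 markers (16 and 15 against 20 and 17). In the other marker lists the groups overlapped or met. How often such counts separate over all genes was not computed, so these gaps are a description. The lost region at Ager, a type 1 marker, is the one counted here for Notch4. Notch4 had 3 and 3 regions in KrasLA1;Dicer1S2D and 4 and 4 in KrasLA1. That difference came from the lost region beyond the gene alone. The part of endothelial cells in the Notch4 values was not tested.

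The 2 target genes, which encode repressors of the basic helix-loop-helix family, had no gained and no lost region. Hes1 is a small gene, and its left end (chromosome 16, 30065357) was covered by peaks of 269 and 268 bp in KrasLA1;Dicer1S2D and 271 and 280 bp in KrasLA1. These widths were close to each other, and narrower in KrasLA1;Dicer1S2D by little. A wide region 1868 bp beyond its right end (30067796) held 1147 and 1268 bp in KrasLA1;Dicer1S2D and 1266 and 1243 bp in KrasLA1. Hes1 had 5 and 6 of its 7 regions called in KrasLA1;Dicer1S2D and 5 and 7 in KrasLA1. Its 2 regions called in 2 libraries were both called in the 2 replicates numbered 2, the male tumours. Hey1 (chromosome 3, 8663359 to 8667038) had 1 region, over its right end (8666733 to 8667884), which also overlapped LOC115489673. Its peaks were 772 and 714 bp wide in KrasLA1;Dicer1S2D and 1102 and 939 bp in KrasLA1. The peak of KrasLA1;Dicer1S2D replicate 1 ran from 8667085 to 8667856, beyond the gene, and the others covered its right end. The widths of the groups did not overlap, and the test of width is given below with the others. Narrower peaks in both KrasLA1;Dicer1S2D tumours, as here and at the left end of Hes1, held for 27.2% of all regions called in 4 libraries.

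**Figure D3:**
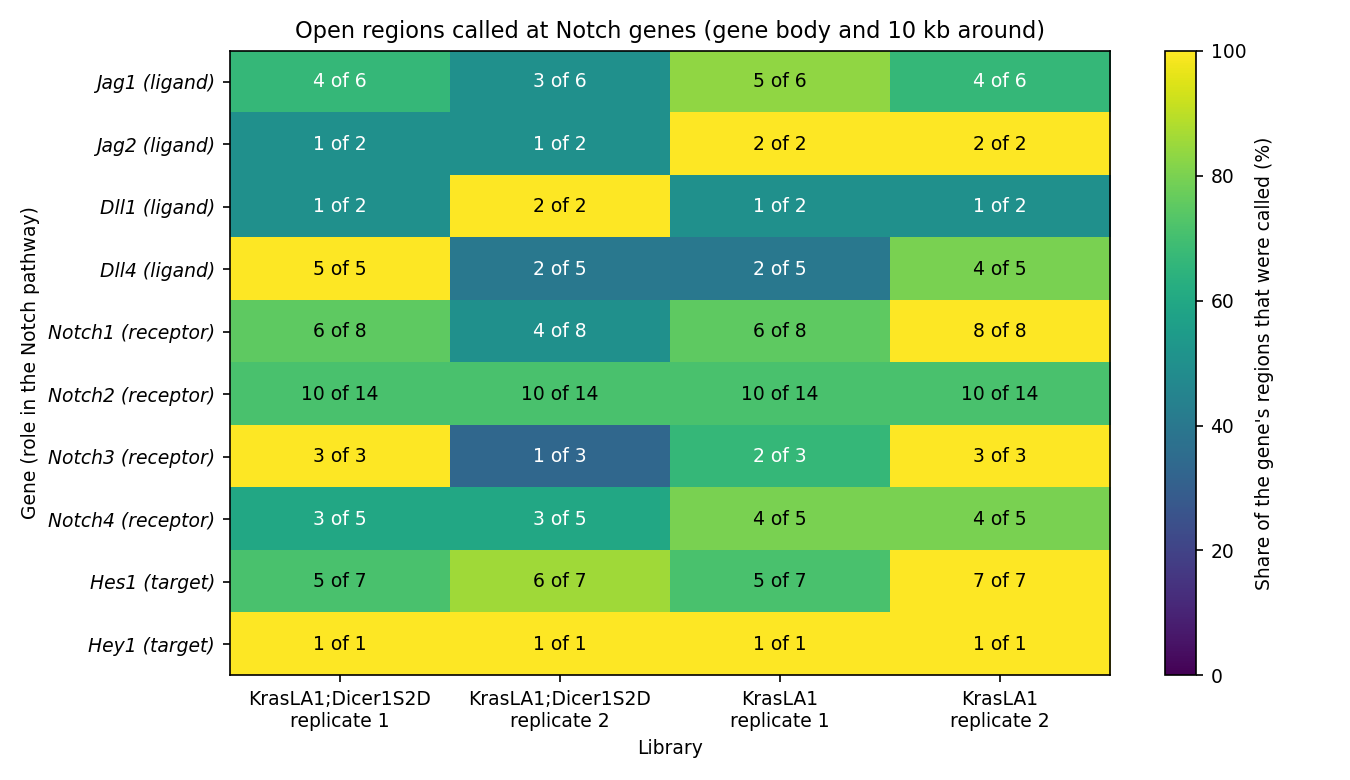
Number of regions called in each library (columns) at each of the 10 Notch genes (rows), of all regions counted for the gene, with colour for the share in percent. Notch2 has 10 of 14 in every library and Hey1 1 of 1, while Dll4 has 5 of 5 in KrasLA1;Dicer1S2D replicate 1 and fewer in the other libraries.

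Over the 10 genes, 26 of the 53 regions were called in all 4 libraries, 5 in 3, 13 in 2 and 9 in 1. The median width of the merged regions was 822 bp for those called in 4 libraries, 454 bp in 3, 344 bp in 2 and 250 bp in 1, and merging more peaks widens a region by construction. Of the 36 regions that overlapped a gene 19 were in all libraries, and of the 17 outside 7 were. The share in all libraries was 49.1%, beside 43.5% of 60713 autosomal regions. Near the 10 kb limit, the farthest regions counted lay 9071 bp from Notch4 and 9588 bp from Jag2, and the nearest left out lay 11526 bp from Notch1 and 11537 bp from Jag2. All 4 of these were called in every library.

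Gained and lost regions were few. Of the 53 regions 1 was gained, beside 0.596% of autosomal regions, and 2 were lost, beside 1.42%. With equal numbers of peaks per library, all autosomal regions held 569 gained and 621 lost, against 362 and 861 with all peaks. By gene, 1 of 10 had a gained region, beside 1.78% of 15882 genes with a region, and 2 of 10 a lost one, beside 4.87%. The list was chosen with this contrast known, so nothing is read from these shares. The gained count was 1 without either KrasLA1 replicate, and 3 and 2 without replicates 1 and 2 of KrasLA1;Dicer1S2D. The lost count was 7 and 2 without KrasLA1;Dicer1S2D replicates 1 and 2, and 5 without either KrasLA1 replicate. Leaving out a library can add such regions and cannot remove one, so these counts say nothing of the stability of the calls at Jag2 and Notch2. Without KrasLA1 replicate 2, what was called at Jag2 was the 481 bp peak inside the gene.

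The number of open regions did not differ between genotypes beyond the spread between tumours. KrasLA1;Dicer1S2D replicates 1 and 2 had 39 and 33 of the 53 regions, against 38 and 44 in KrasLA1 replicates 1 and 2. These are 73.6% and 62.3% in KrasLA1;Dicer1S2D and 71.7% and 83.0% in KrasLA1, beside 78.8% and 54.9%, and 66.0% and 71.8%, of all autosomal regions. For the 9 genes other than Jag2 the mean was 35 ± 4.24 regions in KrasLA1;Dicer1S2D and 39 ± 4.24 in KrasLA1 (SD, n = 2 each), a difference of -4 (exact two-sided permutation test, p = 0.667). The peaks at these 9 genes covered 21152 ± 4084 bp in KrasLA1;Dicer1S2D and 25158 ± 4146 bp in KrasLA1 (SD, n = 2 each, exact two-sided permutation test, p = 0.667). With 2 tumours against 2 the smallest p is 0.333. Within replicate 1, the females, the difference in regions was 2, and within replicate 2, the males, it was -10. With the same number of widest peaks taken from each library, 34767, the difference was 0. Without KrasLA1 replicate 2 it was -0.5, without replicate 2 of the other group it was -1, and without replicate 1 of either group it was -7.

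**Figure D4:**
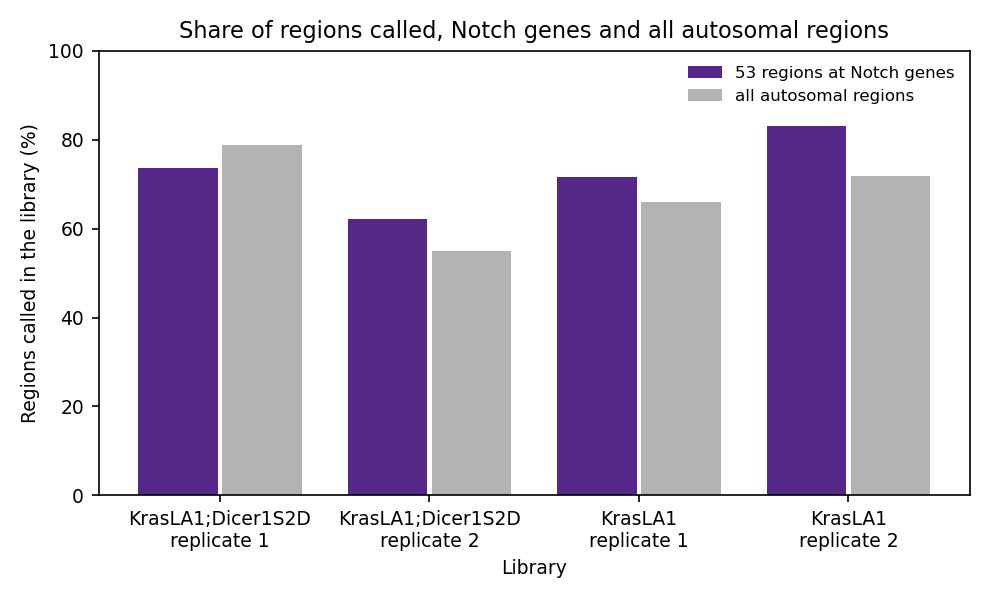
Share of regions called in each library, in percent, for the 53 regions at the 10 Notch genes (purple) and for all 60713 autosomal regions (grey). KrasLA1;Dicer1S2D replicate 2 is lowest in both, at 62.3% and 54.9%.

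Peak width at regions open in every tumour was compared with limma on log2 width, centred on each library's median and fitted over all 26402 such regions. No region passed a Benjamini-Hochberg adjusted p of 0.05 (0% called, 770 had an unadjusted p under 0.05). Of the 25 regions at the 9 genes other than Jag2, 0 had an unadjusted p under 0.05. Their log2 differences, KrasLA1;Dicer1S2D over KrasLA1, ran from -0.98 to 0.46 with a median of 0.04, beside 0.04 over all regions. The lowest was inside Notch2, 49633 to 50320 bp after the start, where peaks were 173 and 336 bp wide in KrasLA1;Dicer1S2D and 529 and 536 bp in KrasLA1 (log2 difference -0.98, SE 0.39, limma adjusted p = 0.999). At Hey1 the log2 difference was -0.29 (SE 0.25, limma adjusted p = 0.999) and at the Dll4 start -0.74 (SE 0.43, limma adjusted p = 0.999). In base pairs, without centring, 10 of the 26 regions open in every tumour were narrower in both KrasLA1;Dicer1S2D tumours than in both KrasLA1 tumours, beside 27.2% of all such regions. These were 5 of 7 at Notch2, 2 of 4 at Hes1, and 1 each at Notch1, Notch4 and Hey1. The region beyond Jag2 was the 1 that was wider in both. Without centring the median log2 difference of all regions was -0.13.

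The rest of the pathway was examined through 42 further genes of ligands, proteases, glycosyltransferases, endocytic and nuclear partners, of which 40 had a region and Dtx1 and Heyl had none. The 40 with a region held 229 regions, and of all autosomal regions 0.596% were gained and 1.42% lost. Of these 40 genes, 0 had a gained region and 4 a lost one, beside 1.78% and 4.87% of all genes with a region. The lost regions lay inside Maml2 (305 bp) and Maml3 (543 bp), genes of Mastermind coactivators, inside Mib1 (367 bp), a ubiquitin ligase that activates ligands, and 2776 bp from Pofut1 (250 bp), which adds fucose to receptors. The KrasLA1 peaks were 305 and 264 bp at Maml2, 248 and 543 bp at Maml3, 307 and 221 bp at Mib1 and 194 and 233 bp at Pofut1, with none in the other pair. The Maml2 region reached into a promoter window of that gene. The start of Maml2 was nevertheless not lost: a peak was called there in KrasLA1;Dicer1S2D replicate 2 and KrasLA1 replicate 1 alone. Maml3 held 36 regions in all, Maml2 18, Pofut1 7 and Mib1 4. The number of genes with a lost region was 7 and 8 without KrasLA1;Dicer1S2D replicates 1 and 2 and 15 and 10 without KrasLA1 replicates 1 and 2. The number with a gained region was 3 and 11 without KrasLA1;Dicer1S2D replicates 1 and 2, and 2 and 11 without KrasLA1 replicates 1 and 2. Of the 42 genes, 34 had a promoter window, and 21 of those had a peak there in all libraries and 6 in none. Over all windows 47.5% had a peak in all libraries and 44.5% in none. In 0 of the 34 were the peaks in the KrasLA1 pair alone, beside 0.498% of all windows. Those open in all included Rbpj, the DNA-binding partner, Adam10 and Adam17, the proteases, Ncstn and Psenen, subunits of gamma-secretase, and Nrarp, a feedback inhibitor. The 6 without a peak in any library were Dll3, Dtx1, Hes5, Hes7, Dlk1 and Dlk2.

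The tissue was checked on marker genes, and those of lung epithelium were open. For comparison, 47.5% of all promoter windows had a peak in every library and 44.5% in none. Of 9 markers of alveolar type 2 cells and lung epithelium, 6 had a promoter window and all 6, Nkx2-1 and Sftpb among them, had a peak there in every library. Their loci held 49 regions, with 40 and 32 called in KrasLA1;Dicer1S2D and 32 and 46 in KrasLA1. Of 5 alveolar type 1 markers 3 had a peak at the start in all libraries, and their 20 regions were called 16 and 15 times in KrasLA1;Dicer1S2D and 20 and 17 times in KrasLA1. Of the airway list 0 of 1 window, and of the white blood cell list 0 of 2, had a peak in all libraries. Loci of 5 airway markers held 17 regions, with 13 and 9 in KrasLA1;Dicer1S2D and 12 and 13 in KrasLA1. Loci of 6 white blood cell markers held 16, with 11 and 6 in KrasLA1;Dicer1S2D and 8 and 12 in KrasLA1, and Cd3e and Adgre1 had none. Ptcra and Il2ra, Notch targets of T cells, had 5 regions, with 4 and 3 in KrasLA1;Dicer1S2D and 4 and 4 in KrasLA1, and none had a peak at its start. A lost region was counted at 2 of 9 type 2 and lung epithelium markers and 2 of 5 type 1 markers, of which that of Ager is the one counted for Notch4. It was also counted at 2 of 8 endothelial (5 with a region), 1 of 7 mural and fibroblast, 1 of 5 airway and 1 of 6 white blood cell markers (3 with a region). The share of all genes with a region was 4.87%. A gained region was counted at 1 of 7 mural and fibroblast markers and at 0 of the other marker lists, beside 1.78%.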

How the data were processed

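The authors deposited intervals of signal peaks in mm10 coordinates (per the file headers), 1 track of peaks per library and 1 of merged regions (5 tracks, all assigned). The tools listed in the submitters' processing notes are deepTools 3.5.1, MACS3 3.0.0 and BWA 0.7.12, with no settings, thresholds, read numbers or shift for the transposase. No interval has a count or score, so tests on counts or signal were not run, and a peak under an unknown threshold is recorded as absent.

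Peaks overlapping by 1 bp were merged, which gave the authors' 61972 regions. Genes came from RefSeq for GRCm38.p6, without exons, and strand from RefSeq promoter windows, and the regions were assigned within 10 kb. Positions count from 1. Gained and lost calls and the background are over autosomes. Each sample has its own combination of genotype and sex, so the 4 samples came from 4 mice, and tests measure the spread between them. Replicate numbers follow sex and are not known to pair the mice otherwise. Width in a region is the sum of its peaks in a library.

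Genes named were all 10 members, pathway genes with a gained or lost region, and the 5 genes nearest to Jag2 in regions per library, with ties settled by open base pairs. Pathway genes given as examples of open starts, those without a peak at the start, and list members without regions were named after their values were seen. Members and lists were chosen with earlier results of these data known. The steps were tested on simulated data. Python 3.11.15, numpy 2.4.6, scipy 1.17.1, matplotlib 3.10.9, R 4.3.3 and limma 3.58.1 were used. Alternatives covered the overlap that merges peaks, stricter and equal numbers of peaks, the gene window, nearest gene, each library left out, and for width the replicate block, centring, a minimum of 200 bp and 100 bp added before the log.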

Additional observations from a re-analysis of the deposited data

Results flagged for a closer look

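The difference in regions between genotypes had opposite signs in the replicate 1 (female) and the replicate 2 (male) tumours for some genes, and this difference was not tested. With KrasLA1 subtracted from KrasLA1;Dicer1S2D, it was 3 in replicate 1 and -2 in replicate 2 at Dll4, and 1 and -2 at Notch3. Over all 10 genes it was 1 and -11, and over the 9 other than Jag2 it was 2 and -10. Each sex has 1 tumour per genotype, so sex and the single mouse cannot be told apart, and KrasLA1;Dicer1S2D replicate 2 had the fewest peaks over the whole genome.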

How the results depend on the processing

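Leaving out a library or widening the gene window cannot remove a gained or lost region. Of the 6 other alternatives, the gained region at Notch2 was not counted within 2 kb of gene ends, where the 10 genes had 0 gained. The 10 genes had 1 lost region with a 50% overlap, with the gene body alone, within 2 kb of ends and by nearest gene, against 2, and Notch4 dropped out each time. Pathway genes with a lost region were 2 with equal numbers of peaks and 1 within 2 kb of ends, against 4, and 1 had a gained region within 50 kb, against 0. All autosomal regions held 569 gained and 621 lost with equal numbers of peaks, against 362 and 861. The difference over 9 genes was 0 with equal numbers and within 2 kb of ends, against -4. With each library left out in turn, gained regions of the 10 genes ran from 1 to 3 and lost ones from 2 to 7, pathway genes with a gained region from 2 to 11 and with a lost one from 7 to 15, all gained regions from 1092 to 7558 and all lost ones from 1577 to 6291. The difference ran from -8 to -1.5 over 10 genes and from -7 to -0.5 over 9. The causes were not tested. With the replicate block 0 regions changed in width (1192 with an unadjusted p under 0.05), as under all width alternatives. Depth is unknown, so an uncalled region need not be closed.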
